A study of Mus musculus with 2 samples.

Results

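Transcription factor genes of the T and innate lymphoid lineages were followed in mouse hematopoietic stem cells (HSCs) sorted by SATB1, which folds chromatin into loops in lymphocytes. The 10 genes, Tcf7, Lef1, Gata3, Bcl11a, Bcl11b, Tox, Eomes, Tbx21, Runx3 and Zbtb16, were chosen by symbol, and each was listed once in each of the 2 files, among 23210 genes used. The libraries came from LSK cells, which lack lineage markers and carry Sca-1 and Kit, and which were further gated as CD150+ and Flt3-. The 2 groups were SATB1-positive HSCs, sorted as Satb1-Tomato (+), and SATB1-negative HSCs, sorted as Satb1-Tomato (-), with 1 library each. The label marks the fluorescent protein by which the fractions were separated. Strain, age, sex, tissue and number of pooled animals are not stated in the labels used here.

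T cell precursors arise when progenitors receive Notch signals and switch on TCF1 (encoded by Tcf7) and GATA3, which in turn open the way for BCL11B, the factor that seals commitment to the T lineage. LEF1 is a close relative of TCF1, and both bind DNA through an HMG box and can work with beta-catenin or with TLE repressors. RUNX3, T-bet (encoded by Tbx21) and EOMES drive cytotoxic and natural killer (NK) cell programs, while PLZF (encoded by Zbtb16) and TOX act in innate-like lymphocytes and, for TOX, also in the thymus and in chronically stimulated T cells. BCL11A, the relative of BCL11B, belongs to stem cells and the B and dendritic cell lineages, and it silences fetal globin genes in human red cells and embryonic ones in the mouse.

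Levels are given as FPKM, which scales the fragments of a gene by its transcript length and by library size, so genes of different length can be set in order. With 1 library a group there is no replicate check and no test across animals. Intervals are exact 95% intervals for counting error only. They rest on fragment numbers estimated from the FPKM and from depths of about 26720000 fragments for the SATB1-positive and 34540000 for the SATB1-negative library, and PCR copies can make them too narrow. In bulk RNA, a difference in the number of cells of a type and a difference in the RNA per cell cannot be told apart.

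The labels were first set against the sort genes. Satb1 was at 8.26 FPKM in the SATB1-positive library and 2.37 FPKM in the SATB1-negative library. Kit was at 286 and 318 FPKM, Ly6a (Sca-1) at 73.9 and 64.5 FPKM, Slamf1 (CD150) at 11.9 and 15.97 FPKM and Flt3 at 27.1 and 17.3 FPKM in SATB1-positive and SATB1-negative HSCs. Flt3 mRNA was thus present in both libraries although both were sorted as Flt3-negative.

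The 10 genes fell into 3 kinds. Tcf7, Lef1, Bcl11b and Tbx21 were 3.32-fold to 4.67-fold higher in SATB1-positive HSCs, and Eomes, at a much lower level, 2.43-fold higher. Bcl11a, Gata3 and Zbtb16 had ratios between 0.9496 and 1.003, and Runx3 was 1.27-fold higher. Tox was the 1 gene of the 10 whose interval lay wholly below a ratio of 1, at 0.648. A ratio of at least 2 was thus seen in 5 of the 10 genes, against 7.46% of the 16535 genes above 0 in both libraries, and a ratio of at most 0.5 in 0 of the 10, against 5.94%. All 10 were above 0 in both libraries, so none was lost to a filter. The 10 were chosen with earlier results of these data known, so these counts are descriptions and not support. The median ratio of the 10 was 1.85, and that of the 16535 genes 1.002.

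**Figure D1:**
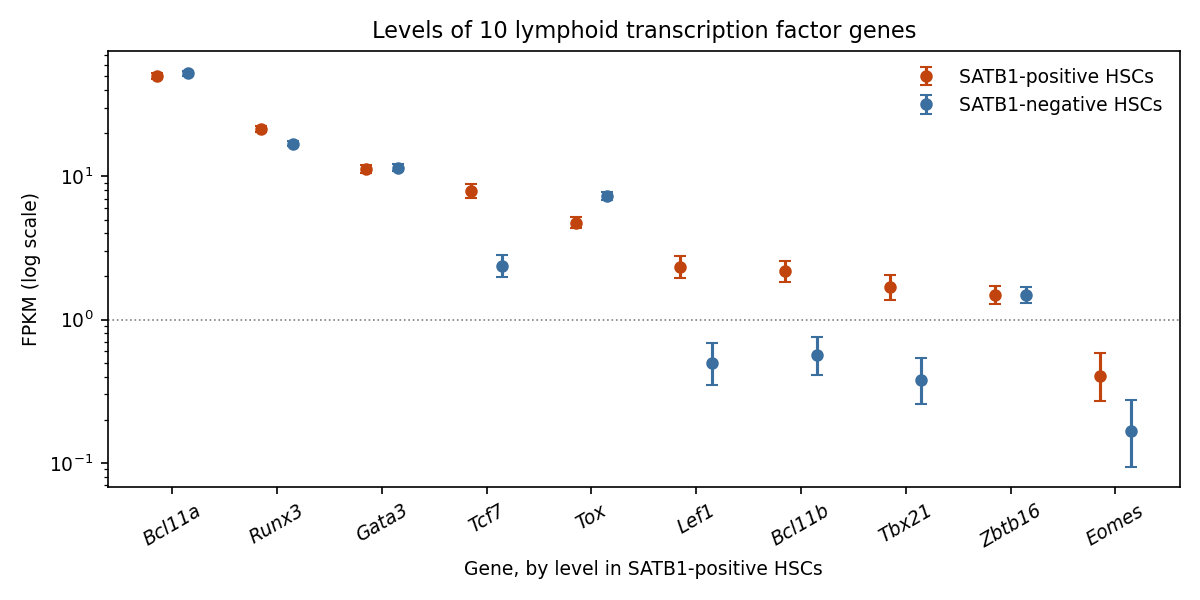
FPKM on a log axis of the 10 genes in the SATB1-positive library (orange, left point of each pair) and the SATB1-negative library (blue, right point). Bars are exact 95% counting intervals and the dotted line marks 1 FPKM. Bcl11a, Runx3 and Gata3 stand at 11 FPKM or more in both libraries, whereas the blue points of Lef1, Bcl11b and Tbx21 lie below 1 FPKM and their orange points above it.

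Promoter sequences are shown for the 4 genes that were at least 3-fold higher, since they differ together, and for Runx3, which carries 2 copies of the binding word of its own family. Each window runs from 250 bases before to 50 bases after a RefSeq transcription start in GRCm38.p6, the assembly that mm10 names. Windows existed for 8 of the 10 genes, 13 in all; Tox and Zbtb16 had none. Where a gene had several, the window with the most words is printed, so the printed windows are no fair draw of promoters. Capitals mark words of the members' own families, searched on both strands. These were CTTTGA for TCF/LEF, AGATAA for GATA factors, TGTGGT for RUNX, GGTGTG for T-box factors and TGACCA for BCL11A. The windows lie at chr11:52282546-52282845 (Tcf7, minus strand, the downstream start of 2), chr3:131156044-131156343 (Lef1, plus strand, an internal start), chr12:108003365-108003664 (Bcl11b, minus strand), chr11:97115282-97115581 (Tbx21, minus strand) and chr4:135120395-135120694 (Runx3, plus strand, the upstream start of 2), each written 5′ to 3′ on the strand of the gene.
Tcf7: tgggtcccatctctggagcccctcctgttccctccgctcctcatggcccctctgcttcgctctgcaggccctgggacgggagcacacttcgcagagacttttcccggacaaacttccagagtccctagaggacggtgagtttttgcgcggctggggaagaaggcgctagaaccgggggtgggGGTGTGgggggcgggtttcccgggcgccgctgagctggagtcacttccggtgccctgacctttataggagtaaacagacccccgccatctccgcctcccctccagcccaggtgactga
Lef1: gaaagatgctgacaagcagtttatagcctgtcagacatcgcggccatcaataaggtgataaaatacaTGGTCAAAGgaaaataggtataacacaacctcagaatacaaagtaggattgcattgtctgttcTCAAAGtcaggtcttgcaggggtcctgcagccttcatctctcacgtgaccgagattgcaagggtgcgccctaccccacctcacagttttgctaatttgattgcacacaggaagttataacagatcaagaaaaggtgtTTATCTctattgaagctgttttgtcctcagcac
Bcl11b: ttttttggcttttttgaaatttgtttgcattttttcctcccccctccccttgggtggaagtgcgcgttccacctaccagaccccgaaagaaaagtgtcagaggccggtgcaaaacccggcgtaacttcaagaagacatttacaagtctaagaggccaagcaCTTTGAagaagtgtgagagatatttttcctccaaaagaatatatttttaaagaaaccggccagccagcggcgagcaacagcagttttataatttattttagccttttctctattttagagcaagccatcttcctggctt
Tbx21: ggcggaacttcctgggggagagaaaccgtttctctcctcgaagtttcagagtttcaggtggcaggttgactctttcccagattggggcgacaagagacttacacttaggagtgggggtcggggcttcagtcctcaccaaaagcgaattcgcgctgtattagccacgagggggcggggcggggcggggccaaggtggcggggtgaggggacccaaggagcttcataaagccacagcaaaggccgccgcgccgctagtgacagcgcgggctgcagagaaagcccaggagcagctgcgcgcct
Runx3: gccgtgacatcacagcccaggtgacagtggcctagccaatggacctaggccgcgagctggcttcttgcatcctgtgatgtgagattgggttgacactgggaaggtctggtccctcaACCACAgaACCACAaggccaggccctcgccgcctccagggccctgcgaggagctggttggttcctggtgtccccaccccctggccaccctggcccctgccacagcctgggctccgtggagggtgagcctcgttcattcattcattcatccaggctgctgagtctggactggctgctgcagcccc

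The Bcl11b window held 1 TCF/LEF word, which starts 89 bases before the transcription start. The Lef1 window at the internal start held 2 TCF/LEF words, 1 GATA word and 1 BCL11A word, the BCL11A word overlapping the first TCF/LEF word. Of the other Lef1 windows, the 2 at the upstream starts held none of the 5 words and the one at chr3:131112541-131112840 held a T-box word. The Tcf7 window held 1 T-box word and the Tbx21 window none of the 5, and the second windows of Tcf7 and Runx3 held none either. Gata3 and Bcl11a held 1 T-box word each in their single windows and Eomes none. In the Runx3 window, 2 RUNX words, ACCACA on the printed strand, stood side by side at 134 and 126 bases before the start. Over all 13 windows of the members, 2 held the TCF/LEF word, 1 the GATA word, 1 the RUNX word, 4 the T-box word and 1 the BCL11A word. Among all 32851 windows of the same length, 16.0% held the TCF/LEF word, 11.2% the GATA word, 16.8% the RUNX word, 19.05% the T-box word and 13.6% the BCL11A word. Such short words are common, and a match describes the letters of the window and no binding. The GC content of the printed windows ran from 43.0% for Bcl11b to 64.3% for Tcf7, and its median over all windows was 52.7%.

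Tcf7, the first T lineage factor switched on by Notch signals, lies on the minus strand of chromosome 11 (52252371 to 52283014, GENCODE M21 on GRCm38). It was at 7.89 FPKM in SATB1-positive HSCs and 2.38 FPKM in SATB1-negative HSCs. The ratio was 3.32 (2.69 to 4.11), from about 325 and 127 fragments. Tcf7 was the single gene of the 10 to meet a rule of size, log2((SATB1-positive FPKM + 1)/(SATB1-negative FPKM + 1)) of at least 1 with 5 FPKM or more in the higher library. Its log2 ratio was 1.40, and 0.81 with 5 FPKM added in place of 1, which is under the rule. The rule counted 1 of the 5 genes that reached 5 FPKM as higher, against 1.31% of 9308 such genes in all, and 0 as lower, against 0.688%. Tcf7 passed the minimum through the SATB1-positive library alone, which fixes its direction, and a count of 1 in 5 is too small to say more than that Tcf7 met the rule.

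Lef1, which acts beside TCF1 in early T and B cell precursors, lies on the plus strand of chromosome 3 (131110471 to 131224356). It was at 2.33 FPKM in SATB1-positive HSCs and 0.498 FPKM in SATB1-negative HSCs. Its ratio of 4.67 (3.21 to 6.95) was the highest of the 10, although its interval overlapped those of Tcf7, Bcl11b and Tbx21. About 130 and 36 fragments lie behind these values. An annotated gene on the opposite strand, Gm43352, covers 13.7% of the Lef1 exon bases, and no source used here says whether strand was used in counting.

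Bcl11b, the T lineage commitment factor, lies on the minus strand of chromosome 12 (107910403 to 108003602). It was at 2.18 FPKM in SATB1-positive HSCs and 0.563 FPKM in SATB1-negative HSCs, a ratio of 3.87 (2.75 to 5.55) from about 135 and 45 fragments. Its relative Bcl11a (plus strand of chromosome 11, 24078056 to 24174123) was the most abundant of the 10 genes in either library. Bcl11a was at 50.02 FPKM in SATB1-positive HSCs and 52.7 FPKM in SATB1-negative HSCs, a ratio of 0.9496 (0.892 to 1.01). Its mRNA exceeded that of Bcl11b 22.9-fold in SATB1-positive and 93.5-fold in SATB1-negative HSCs. Bcl11a was thus the main gene of the pair in both libraries.

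Of the T-box pair, Tbx21 (minus strand of chromosome 11, 97098071 to 97115331) encodes T-bet, a driver of interferon-gamma production and of NK cell maturation. It was at 1.69 FPKM in SATB1-positive HSCs and 0.380 FPKM in SATB1-negative HSCs, a ratio of 4.45 (2.94 to 6.92) from about 103 and 30 fragments. Eomes (plus strand of chromosome 9, 118478212 to 118486132), which shares much of its role in NK and memory T cells, was the least abundant of the 10. It was at 0.405 FPKM in SATB1-positive HSCs and 0.167 FPKM in SATB1-negative HSCs. Only about 29 and 15 fragments lie behind its ratio of 2.43, so the interval is wide, 1.27 to 4.85.

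**Figure D2:**
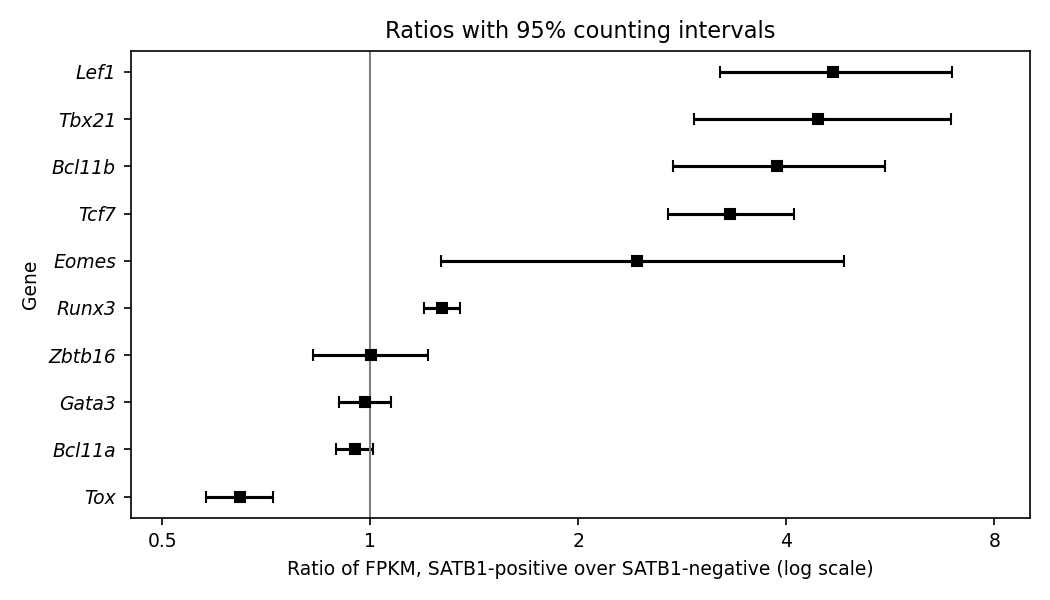
Ratio of FPKM in SATB1-positive over SATB1-negative HSCs on a log axis, 1 square per gene, with exact 95% counting intervals. Lef1, Tbx21, Bcl11b and Tcf7 have intervals that begin at 2.69 or higher, Zbtb16, Gata3 and Bcl11a cross 1, and Tox lies below it.

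Gata3, needed for T cell commitment and for type 2 lymphocytes, did not follow Tcf7 and Bcl11b. It lies on the minus strand of chromosome 2 (9857078 to 9890034) and was at 11.3 FPKM in SATB1-positive HSCs and 11.5 FPKM in SATB1-negative HSCs. The ratio was 0.982 (0.900 to 1.07), from about 908 and 1195 fragments, so the interval stops well short of the lower bounds of Tcf7 and Bcl11b. It was among the 3 most abundant of the 10 genes in each library. Parts of its exons, 5.83% of their bases, overlap other annotated genes.

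Runx3, which silences Cd4 in cytotoxic T cells and acts in NK cells, lies on the plus strand of chromosome 4 (135120652 to 135177990). It was at 21.4 FPKM in SATB1-positive HSCs and 16.9 FPKM in SATB1-negative HSCs. The ratio of 1.27 (1.20 to 1.35) rests on about 2110 and 2148 fragments, and is far under a 2-fold difference. Its level in SATB1-negative HSCs exceeded those of Tcf7, Lef1, Bcl11b, Tbx21 and Eomes in either library.

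Tox lies on the minus strand of chromosome 4 (6686353 to 6991557) and encodes a nuclear HMG-box protein needed for CD4 T cell and innate lymphoid cell development. It was at 4.75 FPKM in SATB1-positive HSCs and 7.33 FPKM in SATB1-negative HSCs. The ratio was 0.648 (0.579 to 0.724), from about 477 and 952 fragments, and the log2 ratio of -0.54 did not meet the rule of size. Its place among the 10 genes by level was number 5 in SATB1-positive and number 4 in SATB1-negative HSCs, where it stood above Tcf7.

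Zbtb16 lies on the minus strand of chromosome 9 (48654297 to 48836222) and encodes PLZF, the zinc finger factor of NKT cells and of innate lymphoid cell precursors, which is also found in stem cells. It was at 1.49 FPKM in SATB1-positive HSCs and 1.48 FPKM in SATB1-negative HSCs, from about 195 and 252 fragments. The ratio was 1.003 (0.827 to 1.21), and its sign turned when the libraries were scaled by their upper quartile. Of the 10 genes, 7 had a log2 ratio above 0, or 6 under that scaling, against 50.5% of genes above 0 in both libraries.

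The order of the levels changed in its lower part. In SATB1-positive HSCs, Bcl11a, Runx3, Gata3, Tcf7 and Tox followed each other with intervals that did not overlap. Below them, the interval of Bcl11b (1.83 to 2.58 FPKM) overlapped those of Lef1 (1.94 to 2.76) and Tbx21 (1.38 to 2.05), which also overlapped each other, and Zbtb16 (1.28 to 1.71) could not be set apart from Tbx21. In SATB1-negative HSCs, the order was Bcl11a, Runx3, Gata3, Tox, Tcf7 and Zbtb16, with no overlap between these 6. Bcl11b, Lef1 and Tbx21 followed with overlapping intervals, and Eomes was last in either library, its upper bound in SATB1-negative HSCs (0.273 FPKM) just above the lower bound of Tbx21 (0.256 FPKM). At least 1 FPKM was reached by 9 of the 10 genes in the SATB1-positive and by 6 in the SATB1-negative library, and Lef1, Bcl11b and Tbx21 make up the difference. The share of all genes that reach 1 FPKM in each library is not given, so these counts only describe the 10 genes.

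**Figure D3:**
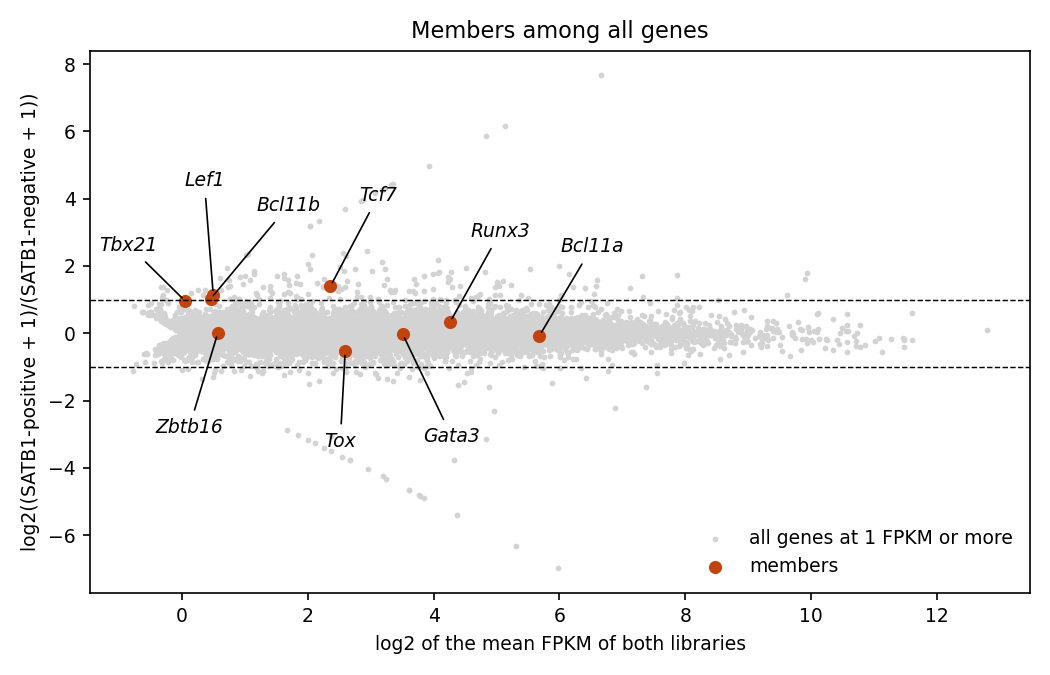
Log2 ratio of SATB1-positive over SATB1-negative HSCs (1 FPKM added) against the log2 mean FPKM for the 11873 genes that reached 1 FPKM in at least one library, in grey, with 9 of the 10 transcription factor genes in orange (Eomes is below 1 FPKM). Dashed lines mark log2 ratios of 1 and -1. Tcf7, Lef1 and Bcl11b lie above the upper line, Tbx21 just under it at 0.96, and the other five lie between the lines.

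A plain ratio of at least 2 with 1 FPKM or more in the higher library held for 4 of 9 members, against 2.43% of 11873 genes, and a ratio of at most 0.5 for 0 of 9, against 2.01%. Low genes vary more, so the higher members were also read against genes of their own range. Of 4312 genes whose higher library lay at 1 FPKM or more and under 10 FPKM, 2.06% were at least 3-fold higher in SATB1-positive HSCs. In that range stood 6 members, and Tcf7, Lef1, Bcl11b and Tbx21 were at least 3-fold higher, while Tox and Zbtb16 were not. Lef1, Bcl11b and Tbx21 passed these limits through the SATB1-positive library alone, which fixes their direction, so the 4 of 9 and the 4 of 6 are descriptions and not support.

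Levels within each family show what the higher genes added. The paralogs in the next sentences were chosen after their values were seen, because the family sums need them. Tcf7l2, the TCF/LEF gene with the highest level in both libraries, was at 8.91 FPKM in SATB1-positive HSCs and 10.2 FPKM in SATB1-negative HSCs, and Tcf7l1, a repressor in pluripotent cells, at 1.87 and 2.10 FPKM. Tcf7 and Lef1 together made up 48.7% of the summed TCF/LEF FPKM in SATB1-positive HSCs, against 19.005% in SATB1-negative HSCs. The sum itself was 21.0 FPKM in SATB1-positive and 15.1 FPKM in SATB1-negative HSCs. Among RUNX genes, Runx1, the stem cell member, was at 38.9 and 41.7 FPKM and Runx2, known from bone, at 15.9 and 17.0 FPKM in SATB1-positive and SATB1-negative HSCs. Runx3 made up 28.1% of RUNX mRNA in SATB1-positive and 22.3% in SATB1-negative HSCs, and the RUNX sum was 76.2 and 75.6 FPKM.

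Among GATA genes, the share of Gata3 was nearly the same in both libraries. Gata2, a factor of stem cell maintenance, was at 137 FPKM in SATB1-positive HSCs and 153 FPKM in SATB1-negative HSCs, and Gata1, the erythroid and megakaryocyte factor, at 44.02 and 33.0 FPKM. Gata3 made up 5.85% of the sum of these 3 genes in SATB1-positive HSCs and 5.82% in SATB1-negative HSCs, while Gata1 made up 22.9% in SATB1-positive and 16.7% in SATB1-negative HSCs. In the TOX family, the broadly expressed Tox4 was at 36.1 and 33.3 FPKM, and Tox made up 11.5% of the sum in SATB1-positive and 17.8% in SATB1-negative HSCs. Bcl11b made up 4.18% of the BCL11 sum in SATB1-positive and 1.06% in SATB1-negative HSCs.

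**Figure D4:**
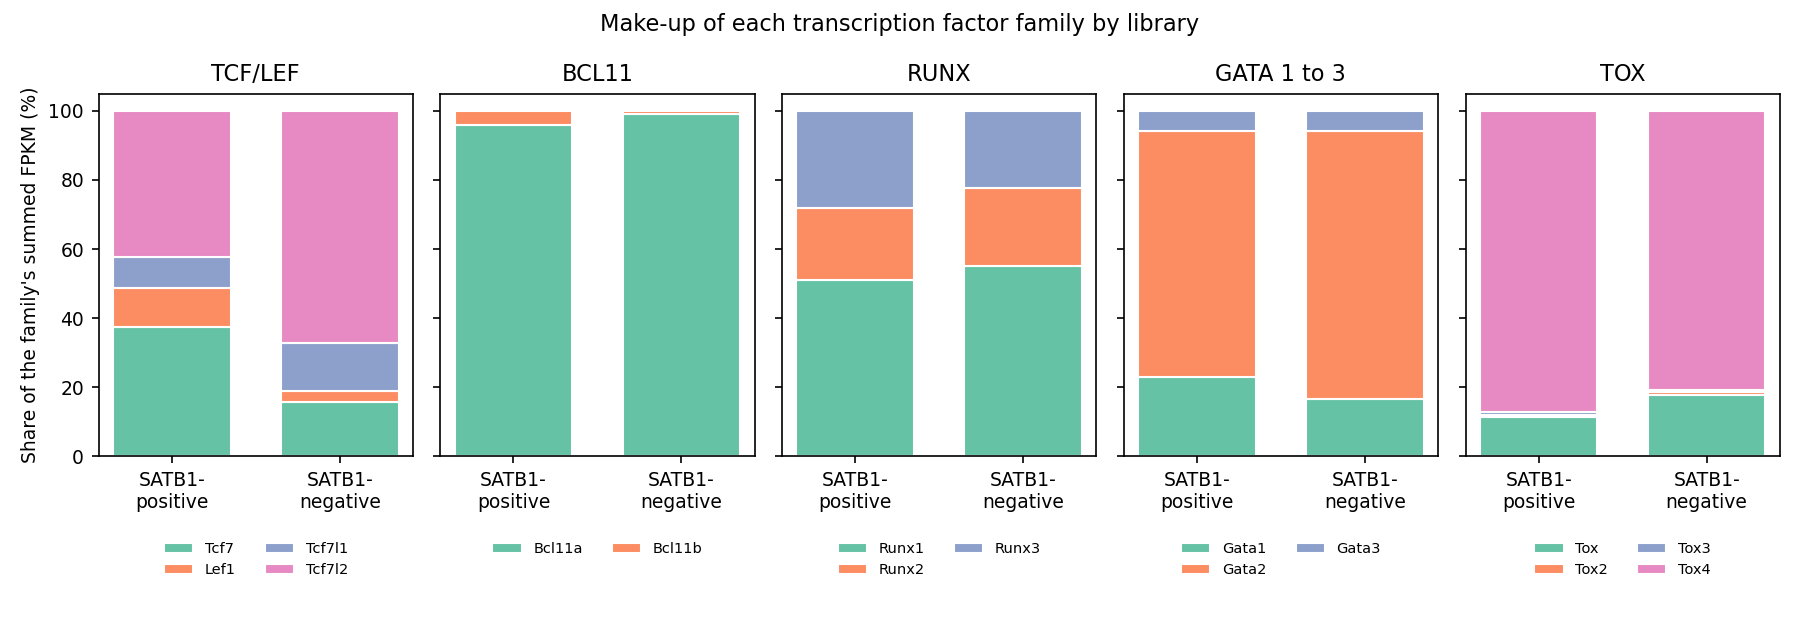
Share of each family's summed FPKM by gene, in percent, for SATB1-positive (left bar) and SATB1-negative HSCs (right bar). Tcf7 and Lef1 take 48.7% of the left TCF/LEF bar and 19.005% of the right one, while Gata3 takes 5.85% of the left GATA bar and 5.82% of the right one.

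None of the paralogs, nor of the genes of partner proteins, met the rule of size. Of 13 paralogs 10 were measured (1 FPKM or more in either library), 4 with a log2 ratio above 0 and 6 below, with a median of -0.10, and all measured genes had a median of -0.01. In each list, a gene measured through 1 library alone leans toward that library by the filter itself. Of 12 partners and targets of TCF/LEF factors 8 were measured, with a median of -0.07; Ctnnb1, which encodes beta-catenin, was at 52.9 FPKM in SATB1-positive HSCs and 49.1 FPKM in SATB1-negative HSCs, and Pygo2, a coactivator in the beta-catenin complex, at 27.5 and 29.0 FPKM. Of 14 partners of RUNX, BCL11 and GATA factors 13 were measured, with a median of 0.12. Of these, 12 had a log2 ratio above 0, against 5821 of 11873 measured genes in all. The 2 most abundant were the chromatin proteins Rbbp7, at 243 FPKM in each library, and Hdac2, at 148 FPKM in SATB1-positive and 138 FPKM in SATB1-negative HSCs. The embryonic globin genes, which include beta-type genes that BCL11A silences, were at or near 0. Hbb-y and Hba-x were listed at 0 in both libraries, and Hbb-bh1 was listed at 0 in SATB1-positive and at 0.0708 FPKM in SATB1-negative HSCs.

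Other regulators of T cell commitment differed in both directions. Of 14 listed genes, which include the sorted gene Satb1, 12 were measured, with a median log2 ratio of 0.14. Of the 10 that reached 5 FPKM, 2 met the rule as higher, against 1.31% of 9308 genes in all. As lower 1 met it, against 0.688%. Gfi1, a repressor in lymphoid and myeloid progenitors, was at 14.4 FPKM in SATB1-positive HSCs and 5.37 FPKM in SATB1-negative HSCs, and Satb1 was the other higher gene. Since the groups were sorted by a Satb1 label, the call of Satb1 is a check of the sort and no separate result. Satb1 also passed the minimum through the SATB1-positive library alone. The lower one was Hes1, a Notch target, at 68.9 FPKM in SATB1-positive and 150 FPKM in SATB1-negative HSCs. The most abundant, Myb, was at 298 and 283 FPKM. Notch1, picked with its values known, was at 3.47 FPKM in SATB1-positive and 3.23 FPKM in SATB1-negative HSCs.

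Of 11 innate lymphoid and NK regulators 10 were measured, with a median log2 ratio of 0.40. Of the 8 that reached 5 FPKM, 1 met the rule as higher, against 1.31% of 9308 genes in all. Id2, the E protein inhibitor needed for NK and innate lymphoid cells, was at 45.9 FPKM in SATB1-positive HSCs and 17.2 FPKM in SATB1-negative HSCs, a ratio of 2.67 (2.43 to 2.94). Zeb2, which acts downstream of T-bet in NK cells, was at 24.5 and 17.2 FPKM. Ikzf3 (Aiolos) and Ets1 were chosen after their values were seen. Ikzf3 was at 3.03 FPKM in SATB1-positive HSCs and 0.340 FPKM in SATB1-negative HSCs, and Ets1 at 23.3 and 11.3 FPKM.

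Genes known to act downstream of these factors in T and NK cells were listed in 3 groups, which also belong to GATA3, RUNX3 and PLZF, whose own genes had ratios of 0.982, 1.27 and 1.003. Of 20 T cell genes downstream of TCF1, GATA3 and BCL11B, 14 were measured and 7 reached 5 FPKM. Of these 7, 6 met the rule as higher, against 1.31% of 9308 genes in all, and none as lower, against 0.688%. The measured genes had a median log2 ratio of 1.21, or 0.88 over all 20. Of the 6, only Lck was at 5 FPKM or more in both libraries; the other five passed that minimum through the SATB1-positive library, which fixes their direction. Il7r, Cd3e, Cd3g and Cd8b1 had ratios of 10.5, 5.59, 4.48 and 5.23, beside 3.32 for Tcf7 and 3.87 for Bcl11b, and Lck, the T cell receptor kinase, was at 23.2 FPKM in SATB1-positive HSCs and 10.98 FPKM in SATB1-negative HSCs. Among genes used in thymocytes, Ptcra, the pre-T cell receptor chain, was at 0.0347 FPKM in SATB1-positive HSCs and listed at 0 in SATB1-negative HSCs, and the recombinase gene Rag1 was at 0.0174 and 0.00445 FPKM. About 1 and 0 fragments lie behind the Ptcra values and about 3 and 1 behind those of Rag1, too few to read a direction. Il2ra, which marks committing thymocytes, was at 0.948 FPKM in SATB1-positive HSCs and 0.129 FPKM in SATB1-negative HSCs, a ratio of 7.33 (4.46 to 12.7). These 3 names were picked with their values known.

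Of 12 effector genes downstream of EOMES, T-bet and RUNX3, 9 were measured and 4 reached 5 FPKM. All 4 met the rule as higher, against 1.31% of 9308 genes in all, and none as lower, against 0.688%. The 9 measured genes had a median log2 ratio of 1.63, or 1.47 over all 12. Of the 4, only Ccl5 was at 5 FPKM or more in both libraries, so the minimum fixes the direction of the other three. Ifng, a target of T-bet, was at 5.19 FPKM in SATB1-positive HSCs and 0.975 FPKM in SATB1-negative HSCs, a ratio of 5.32 (3.63 to 7.98). Il2rb, Gzmb and Ccl5 had ratios of 8.07, 7.64 and 4.13, beside 4.45 for Tbx21. Of 11 genes of PLZF-associated innate lymphocytes 10 were measured, all with a log2 ratio above 0, against 5821 of 11873 measured genes. Of the 4 that reached 5 FPKM, 1 met the rule as higher, against 1.31% of 9308 genes in all. This was Cxcr6, at 10.6 FPKM in SATB1-positive and 1.19 FPKM in SATB1-negative HSCs. It passed the minimum through the SATB1-positive library alone, which fixes its direction. Zbtb16 itself had a ratio of 1.003. Itga4, an integrin and the most abundant of that list, was at 31.9 and 23.8 FPKM.

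**Figure D5:**
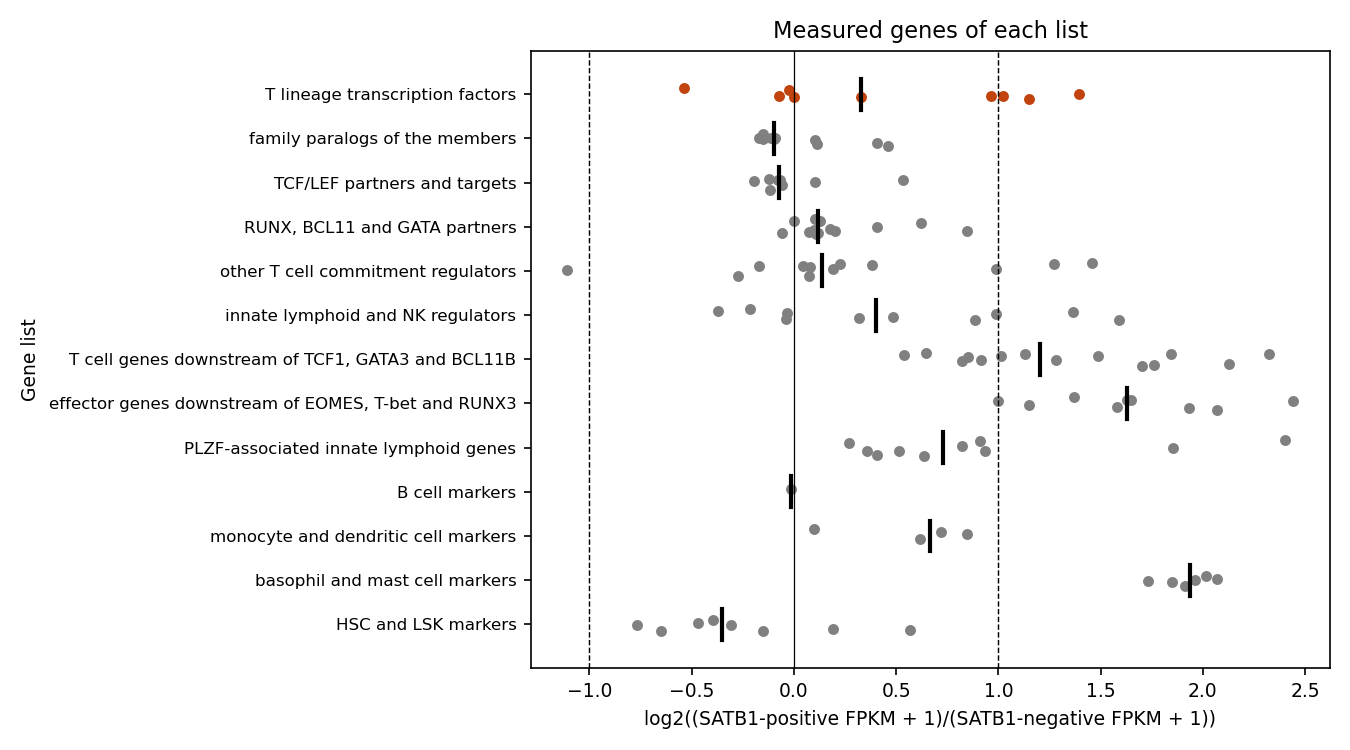
Log2 ratio (1 FPKM added) of each gene with at least 1 FPKM in either library, by list, with the median as a black bar and the transcription factor genes in orange. Vertical spread of the points within a row carries no value. The dashed lines mark -1 and 1; the T cell and effector lists have medians of 1.21 and 1.63, the paralogs one of -0.10.

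T cell markers and basophil and mast cell markers had members that met the rule as higher, as Tcf7 did. The other marker lists had none. No NK cell marker and only 1 B cell marker, Cd79b, reached the 5 FPKM minimum, so for these 2 lists the absence of calls says little. The 12 T cell markers summed to 91.9 FPKM in SATB1-positive HSCs and 32.2 FPKM in SATB1-negative HSCs, and none was at 0. Of the 6 that reached 5 FPKM, 5 met the rule of size as higher, against 1.31% of 9308 genes in all. Only Lck among these 5 was at 5 FPKM or more in both libraries. All 12 are also among the T cell genes downstream of TCF1, GATA3 and BCL11B above, so they are no second result. The 5 NK cell markers summed to 11.7 FPKM in SATB1-positive HSCs and 3.93 FPKM in SATB1-negative HSCs, with none at 0. All 5 were under the 5 FPKM minimum, so none could meet the rule. Their median log2 ratio over all 5 was 0.9996, so the list was higher in SATB1-positive HSCs although no gene was called. Ncr1, Klrd1, Gzma and Prf1 are also among the effector genes above, and Klrb1c among the PLZF-associated genes. The NK cell markers are thus no second result either. Basophil and mast cell markers summed to 564 FPKM in SATB1-positive HSCs and 156 FPKM in SATB1-negative HSCs, with Fcer1a at 9.70 and 1.75 FPKM. Of these markers, 6 of 6 met the rule as higher, against 1.31% of 9308 genes in all. Fcer1a, Ms4a2 and Gzmb passed the minimum through the SATB1-positive library alone, and Gzmb is also among the effector genes above. The part of these cell types in the levels of the transcription factors was not tested. The 9 B cell markers summed to 36.0 FPKM in each library, nearly all of it Cd79b at 33.9 FPKM in SATB1-positive and 34.3 FPKM in SATB1-negative HSCs, while Pax5 was listed at 0 in SATB1-positive HSCs and Igll1 at 0 in SATB1-negative HSCs. The 7 monocyte and dendritic cell markers summed to 343 FPKM in SATB1-positive and 195 FPKM in SATB1-negative HSCs, mostly Ly6c2, with none at 0 and none past the rule. The 8 HSC and LSK markers summed to 734 and 724 FPKM, with none at 0, none past the rule and a median log2 ratio of -0.35. Of the 8, 6 had a log2 ratio below 0, against 6052 of 11873 measured genes in all. The most abundant were Kit and Cd34, and Cd34, at 248 FPKM in SATB1-positive and 167 FPKM in SATB1-negative HSCs, was among the 2 above 0. Of the lower ones, picked with their values known, Vwf had a ratio of 0.553, Mecom of 0.629, Procr of 0.711 and Hlf of 0.804.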

How the data were processed

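The deposited values are FPKM, 1 value per gene symbol and library, per the file headers. TopHat2 2.0.13, Bowtie2 2.2.3, SAMtools 0.1.19, Cufflinks 2.2.1 and the build mm10 are named, without roles or settings, in the submitters' processing notes; for annotation and strand setting, nothing was given in the sources used here. RNA was taken with miRNeasy and libraries were made with the SMARTer Stranded kit, per the labels' protocols. Of 23235 rows per file, 25 whose symbols had become spreadsheet dates were left out. Cufflinks FPKM splits fragments between isoforms and overlapping genes by a model.

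The files hold FPKM alone. Depth was found from the lowest values of single-exon genes, which step by 1 fragment: an effective length of the transcript minus 200 bases made 61.0% of 218 values in the SATB1-positive and 57.9% of 202 in the SATB1-negative library whole within 0.05 fragments. These depths were chosen by that search as the best of those tried. The share that other depths reach is not given, so fragment numbers and intervals are approximate. Fragments per gene used the shortest RefSeq-linked transcript in GENCODE M21 (89.6% of symbols matched), and intervals are Clopper-Pearson for ratios and exact Poisson for levels. The list name Spi1 was matched to the older symbol Sfpi1 in the files through RefSeq. Python 3.11.15, pandas 2.3.3 and SciPy 1.17.1 were used.

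The members and the gene lists were chosen with earlier results of these data known. All 10 members are named. From each other list, the text names the genes past the rule of size (at most 4), the 2 most abundant, and the globins in full; the sort genes check the labels, and further genes are marked. For some marker lists only summed levels and examples are given. The size rule was tested on simulated data. The alternatives were other pseudocounts, scalings, minimum levels and thresholds, and the longest transcript.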

Additional observations from a re-analysis of the deposited data

How the results depend on the processing

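Over all genes, the rule of size counted 122 as higher and 64 as lower in SATB1-positive HSCs, and over the 10 transcription factor genes 1 and 0. With a pseudocount of 5 FPKM these counts were 68, 36, 0 and 0, and with a 4-fold threshold 24, 25, 0 and 0. Scaling to the sum (TPM), with the pseudocount and minimum then in TPM, gave 174 higher and 100 lower genes and 1 higher member. A minimum of 1 FPKM, or none, gave 3 higher members, Lef1 and Bcl11b beside Tcf7. A plain ratio of 2 with a minimum of 1 FPKM, chosen after seeing the data, gave 288 higher and 239 lower genes and 4 higher members. No alternative gave a lower member. Scaling by the median ratio or the upper quartile left the log2 ratio of each of the 10 genes within its counting interval. Scaling to the sum moved 4 of them past the upper end, Lef1 to 1.51, Bcl11b to 1.34, Tbx21 to 1.32 and Eomes to 0.44, in the same direction, and left the other six within. None of the 3 scalings moved the median of all measured genes by more than 0.01. With the longest transcript, the counting interval of 1 gene, Bcl11a, came to lie below 1 (0.922 to 0.978). The intervals of Tcf7, Lef1, Bcl11b and Eomes stayed above 1, and the other five genes have 1 linked transcript length, so this alternative could not change them. No paired analysis was possible because each group has 1 library; for the same reason no replicate could be left out. Depth limits Eomes most, at about 29 and 15 fragments in SATB1-positive and SATB1-negative HSCs.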

Other observations

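The genes here were chosen after their values were seen. Among partners of BCL11A, Mta2, a subunit of the NuRD chromatin complex, was at 119 FPKM in SATB1-positive HSCs and 65.9 FPKM in SATB1-negative HSCs, a ratio of 1.81 (1.75 to 1.87), while its relatives Mta1 and Mta3 had ratios of 1.05 and 1.10. Dtx1, a Notch target that encodes Deltex1, was at 0.885 FPKM in SATB1-positive HSCs and 0.172 FPKM in SATB1-negative HSCs, whereas the Notch target Hes1 was lower in SATB1-positive HSCs. Tle3, a corepressor of TCF/LEF factors, had a ratio of 1.52 (1.38 to 1.68), and Tle1, Tle2 and Tle4 had ratios of 0.904, 0.917 and 0.959. The Wnt target gene Lgr5 was at 0.0996 and 0.396 FPKM, and Axin2, another such target, at 0.175 and 0.0851 FPKM in SATB1-positive and SATB1-negative HSCs. Axin2 rests on about 19 and 12 fragments, and the interval of its ratio (0.948 to 4.66) crosses 1.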
